A study of Mus musculus with 6 samples.

Results

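The genes for adrenomedullin, its receptor subunits, the natriuretic peptide receptors and the VIP receptor 1 were followed in CD31-positive cells of the newborn mouse lung. The set consists of Adm, Calcrl, Ramp1, Ramp2, Ramp3, Npr1, Npr2, Npr3 and Vipr1. All 9 were found by Ensembl ID among 56941 genes counted, and all 9 passed the filter on low counts. Animals of one group were kept in hyperoxia (75% oxygen) from postnatal day 0 to day 7, and those of the other in room air (21% oxygen) over the same days. Each group had 3 libraries. Cells were taken from digested lung with magnetic beads against CD31, the endothelial adhesion molecule encoded by Pecam1. No strain, genotype or agent besides oxygen is named, and the labels do not say whether replicates were separate animals, so every p-value below measures only the scatter among these libraries.

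Adrenomedullin is a small vasodilator peptide that acts on endothelium through a class B G protein-coupled receptor encoded by Calcrl. The partner protein decides the ligand: with RAMP2 or RAMP3 the receptor binds adrenomedullin, and with RAMP1 it binds calcitonin gene-related peptide (CGRP). The receptor signals mainly through cyclic AMP. Natriuretic peptides act through guanylyl cyclase receptors that make cyclic GMP: Npr1 encodes the receptor for the atrial and B-type peptides and Npr2 the receptor for C-type peptide. Npr3 encodes the clearance receptor, which binds all of these peptides and removes them. Vipr1 encodes VPAC1, a receptor for vasoactive intestinal peptide (VIP) that raises cyclic AMP.

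In hyperoxia, transcripts of the receptor Calcrl were 1.63-fold lower and those of its CGRP-type partner Ramp1 were 2.05-fold higher. Both differences passed the test over all genes. The other 7 did not, among them the adrenomedullin gene Adm, its main receptor partner Ramp2 and all 3 natriuretic peptide receptors. Of 17072 genes tested by edgeR's quasi-likelihood test with Benjamini-Hochberg adjustment, 11.2% were called at an adjusted p below 0.05; 6.77% of the genes tested were called higher in hyperoxia and 4.41% lower. The 9 genes gave 1 higher and 1 lower call. The 3 hyperoxia values and the 3 room air values did not overlap at 4 of the 9 genes (Adm, Calcrl, Ramp1 and Npr2), where 30.9% of all genes tested showed no overlap. The median log2 fold change of the 9 was -0.13, against -0.00927 over all genes tested. In cells pooled from a tissue, fewer cells of a type and less RNA per cell cannot be told apart, and this holds for each difference below.

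The promoters of the called genes and of the ligand gene are shown here because these 3 genes differed most between the groups in fold change. They are RefSeq sequences on GRCm38.p6, from 250 bases before to 50 bases after the annotated start, and 8 of the 9 genes had an entry. Calcrl is read on the minus strand of chr2:84425217-84425516, Ramp1 on the plus strand of chr1:91179572-91179871 and Adm on the plus strand of chr7:110627407-110627706. Capitals mark matches, on either strand, to the core of the hypoxia-inducible factor element (ACGTG or GCGTG) or to the cyclic AMP response half-site (TGACG).
Calcrl: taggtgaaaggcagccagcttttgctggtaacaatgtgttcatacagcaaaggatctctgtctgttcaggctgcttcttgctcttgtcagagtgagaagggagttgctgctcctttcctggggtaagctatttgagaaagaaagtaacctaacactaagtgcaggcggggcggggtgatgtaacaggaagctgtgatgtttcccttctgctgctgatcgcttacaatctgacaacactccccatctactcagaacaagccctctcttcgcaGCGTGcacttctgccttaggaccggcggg
Ramp1: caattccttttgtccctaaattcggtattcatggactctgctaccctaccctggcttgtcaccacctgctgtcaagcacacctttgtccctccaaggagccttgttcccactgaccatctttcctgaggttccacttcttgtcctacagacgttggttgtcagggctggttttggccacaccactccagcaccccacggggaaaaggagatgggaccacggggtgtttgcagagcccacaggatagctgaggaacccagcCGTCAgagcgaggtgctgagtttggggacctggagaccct
Adm: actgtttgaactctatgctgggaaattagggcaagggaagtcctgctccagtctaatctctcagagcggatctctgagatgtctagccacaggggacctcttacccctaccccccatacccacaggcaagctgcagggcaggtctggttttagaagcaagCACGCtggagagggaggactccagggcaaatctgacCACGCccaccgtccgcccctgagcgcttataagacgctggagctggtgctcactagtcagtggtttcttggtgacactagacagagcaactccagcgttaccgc
The hypoxia core was found 2 times in the Adm window, 1 time in the Calcrl window and 0 times in that of Ramp1. The cyclic AMP half-site was found 1 time in the Ramp1 window and 0 times in those of Adm and Calcrl, and no match to one motif overlapped a match to the other. Windows of uncalled genes that are not shown held these motifs too. Ramp3 had 2 hypoxia cores, Npr1 and Vipr1 had 1 each, and Npr2 and Npr3 had 0. The half-site occurred 1 time each in Npr3 and Vipr1, and 0 times in Ramp3, Npr1 and Npr2. Across 32851 mouse promoters of the same length, 43.8% held a hypoxia core and 20.8% held the half-site. These letters describe the windows and show no binding.

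The libraries held 39379793 to 42343192 counted reads and 19471 to 23989 detected genes. Reads of 4 Y-linked genes were 2, 6263 and 0 in hyperoxia 1, 2 and 3, against 5433, 6361 and 6311 in room air 1, 2 and 3. Hyperoxia 2 is therefore the one hyperoxia library with more than 2 such reads, and sex and oxygen cannot be told apart for the other 2. All 10 pan-endothelial markers were detected, with a summed level of 10840 to 14900 CPM (counts relative to the TMM-scaled library size) in hyperoxia and 12700 to 17840 CPM in room air, and 0 of 10 were called. Their median log2 fold change was -0.276, against -0.00927 over all genes tested, so the lack of calls does not show unchanged levels. Markers of other cells were abundant too: the 8 alveolar type 2 genes summed to 13700 to 16740 CPM in hyperoxia and 12300 to 19250 CPM in room air. Hyperoxia 2 and room air 3 were the lowest libraries of their groups for the pan-endothelial sum and the highest for the sums of alveolar type 1, alveolar type 2, smooth muscle and fibroblast genes.

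The order of the 9 transcript levels is given per length, as CPM per kilobase of exon (mean ± SD, n = 3 each). Calcrl was at 229 ± 40.7 in hyperoxia and 373 ± 52.2 in room air, and Ramp2 at 181 ± 39 in hyperoxia and 228 ± 38.3 in room air. Npr1 followed at 69.7 ± 13.6 in hyperoxia and 86.6 ± 17.6 in room air. These 3 were among the abundant transcripts of the cells: at least 96% of 16764 genes with a length lay below each of them in either group. In hyperoxia the SD ranges of Calcrl and Ramp2 overlapped, whereas in room air Calcrl lay above Ramp2 by more than the summed SDs. That order is uncertain, because 33.4% of the exonic bases of Ramp2 are shared with Vps25 and the counting of such reads is not given.

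The middle of the order was crowded. Levels in hyperoxia were 11.5 ± 2.87 for Npr3, 10.2 ± 2.02 for Ramp3, 8.91 ± 0.647 for Npr2 and 8.86 ± 1.3 CPM per kilobase for Ramp1, and neighbours in this run did not differ beyond their spread. In room air Ramp3 was at 13.7 ± 2.33, Npr3 at 11 ± 2.99, Npr2 at 6.63 ± 1.35 and Ramp1 at 4.33 ± 1.25 CPM per kilobase. There the SD ranges of Ramp3 and Npr3, and of Npr2 and Ramp1, overlapped. Adm was at 4.29 ± 0.862 CPM per kilobase in hyperoxia and 2.41 ± 0.939 in room air, close to the middle of all genes (53.4% of genes lay below it in hyperoxia and 42.1% in room air). Vipr1 came last, at 0.406 ± 0.0941 CPM per kilobase in hyperoxia and 0.445 ± 0.236 in room air. By percentile, Ramp1 moved most: 69.1% of genes lay below it in hyperoxia, against 53.9% in room air.

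**Figure D1:**
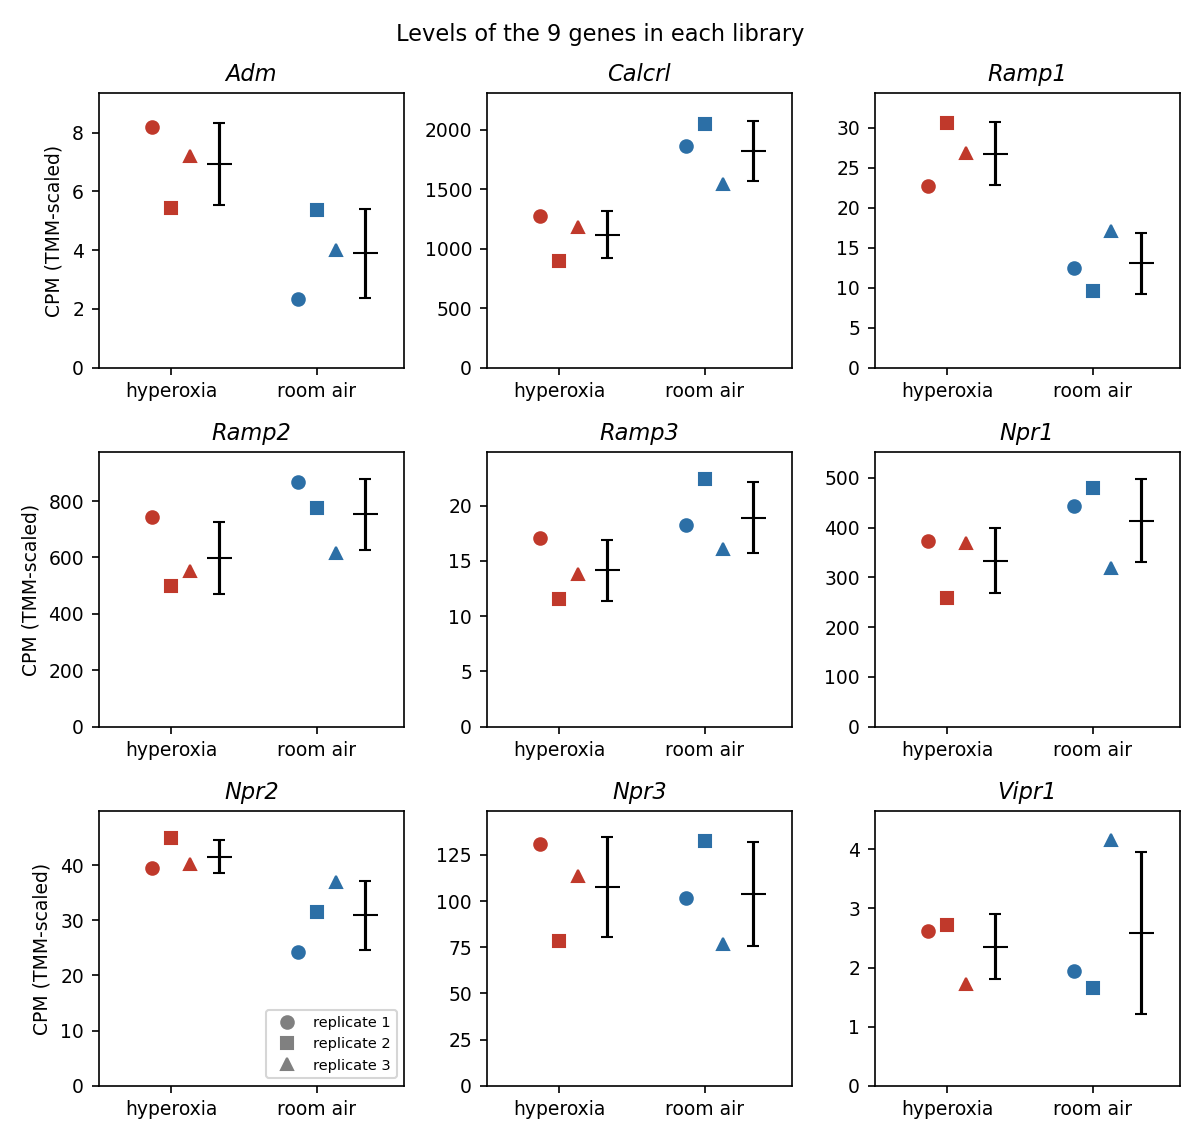
TMM-scaled CPM of the 9 genes in each of the 6 libraries, hyperoxia in red to the left of room air in blue, each vertical axis starting at 0; symbols are replicates, and black bars are the mean ± SD of 3 libraries. The groups lie apart at Adm, Calcrl, Ramp1 and Npr2 and overlap at the other 5.

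Adm (ENSMUSG00000030790) encodes the preproadrenomedullin precursor. Its level was 8.19, 5.44 and 7.21 CPM in hyperoxia 1, 2 and 3, against 2.32, 5.36 and 4.01 CPM in room air 1, 2 and 3. The groups did not overlap, but hyperoxia 2 and room air 2 nearly met, at 220 and 210 reads. The mean was 6.95 ± 1.4 CPM in hyperoxia and 3.9 ± 1.52 CPM in room air, a log2 fold change of 0.83 (SE 0.31, 95% limits 0.15 to 1.52), which edgeR did not call (adjusted p = 0.117). Without room air 1, the lowest library, it was 0.56 (adjusted p = 0.273), and edgeR run with no filter on low counts gave 0.84 (adjusted p = 0.0254).

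Of 10 other ligand genes in the pathway lists, chosen for description by their role, 2 passed the filter and 8 did not. Adm2, which encodes adrenomedullin 2 (intermedin), another agonist of these receptors, had 18, 81 and 35 reads in hyperoxia, against 6, 9 and 10 reads in room air. Each hyperoxia library thus exceeded each room air library, and hyperoxia 2 held the largest number. Its log2 fold change of 2.42 (SE 0.71) was just short of a call by edgeR (adjusted p = 0.0543), and became 1.68 (adjusted p = 0.189) without hyperoxia 2. Over the 17 alternatives that tested Adm2 the log2 fold change ran from 1.68 to 3.27 (adjusted p 0.00948 to 0.204), and 5 of them called it higher. Nppc, the gene for C-type natriuretic peptide, had 10, 26 and 12 reads in hyperoxia, against 26, 12 and 17 reads in room air, and the groups overlapped.

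The 8 ligand genes below the filter reached at most 6 reads in a hyperoxia library and 27 in a room air library. Iapp, encoding amylin, and Ostn, encoding musclin, had 0 reads in all 6 libraries, and each count of 0 allows up to 3. The CGRP genes were barely seen: Calca had 0, 0 and 6 reads in hyperoxia and 4, 2 and 9 in room air, and Calcb had 0 in each hyperoxia library and 0, 6 and 5 in room air. Nppa, for atrial natriuretic peptide, had 0 reads in all hyperoxia libraries and 22, 0 and 0 in room air, so its reads came from room air 1 alone. In the annotation 61.5% of its exonic bases lie opposite Gm13054 on the other strand. How such reads were counted is not given, so the low count of Nppa is uncertain. The VIP gene Vip had 0 reads in each hyperoxia library and 4, 10 and 27 reads in room air. It did not pass the filter; edgeR run with no filter called it lower (adjusted p = 0.0121), and called none of the other ligands below the filter that had reads.

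Calcrl (ENSMUSG00000059588), the shared receptor for adrenomedullin and CGRP, was the one of the 9 genes called lower. Its level was 1276, 895.4 and 1185 CPM in hyperoxia 1, 2 and 3, against 1867, 2050.4 and 1547 CPM in room air 1, 2 and 3. The highest hyperoxia library lay below the lowest room air library, and hyperoxia 2 and room air 3 were the lowest of their groups. The mean was 1119 ± 199 CPM in hyperoxia and 1822 ± 255 CPM in room air (log2 fold change -0.70, SE 0.17, 95% limits -1.09 to -0.32, edgeR adjusted p = 0.0264). With the library left out, edgeR's adjusted p was 0.0844 without hyperoxia 2, 0.0753 without hyperoxia 3, 0.0738 without room air 1 and 0.101 without room air 2, so the call was lost in these 4 fits, with log2 fold changes between -0.76 and -0.56. When hyperoxia 2 and room air 3 were both omitted, the log2 fold change was -0.68 (adjusted p = 0.00332).

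Endothelial marker lists went both ways. The pan-endothelial sum was 14900, 10840 and 14110 CPM in hyperoxia, against 17840, 17190 and 12700 CPM in room air, and its groups overlapped. Of 8 general capillary markers 4 were called lower and 0 higher, and of 7 arterial markers 3 were called lower and 0 higher. Markers not called are not thereby unchanged: the arterial Efnb2 had a log2 fold change of -0.594 (edgeR adjusted p = 0.052). Calls among 7 venous markers were 2 higher (Bst1 and Selp) and 0 lower, and among 6 lymphatic markers 2 higher (Pdpn and Reln) and 0 lower. Among 8 aerocyte markers 2 were called higher (Apln and Emp2) and 1 lower (Fibin). Pdpn was at 106, 147 and 113 CPM in hyperoxia, against 52.8, 62.1 and 81.4 CPM in room air. It was highest in hyperoxia 2 and room air 3, as was the alveolar type 1 sum. Which cells gave these calls was not tested. None of the markers in these lists was at 0 in every library. Set against the pan-endothelial sum, a measure added after the values were seen, Calcrl stood at 85.6, 82.6 and 84 per 1000 CPM in hyperoxia, against 105, 119 and 122 per 1000 CPM in room air. On that scale the 3 hyperoxia libraries nearly coincided and the groups stayed apart, with a log2 difference of -0.45 in place of -0.71 for the plain CPM. The exact two-sided permutation p was 0.1, the smallest that 3 against 3 allows.

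**Figure D2:**
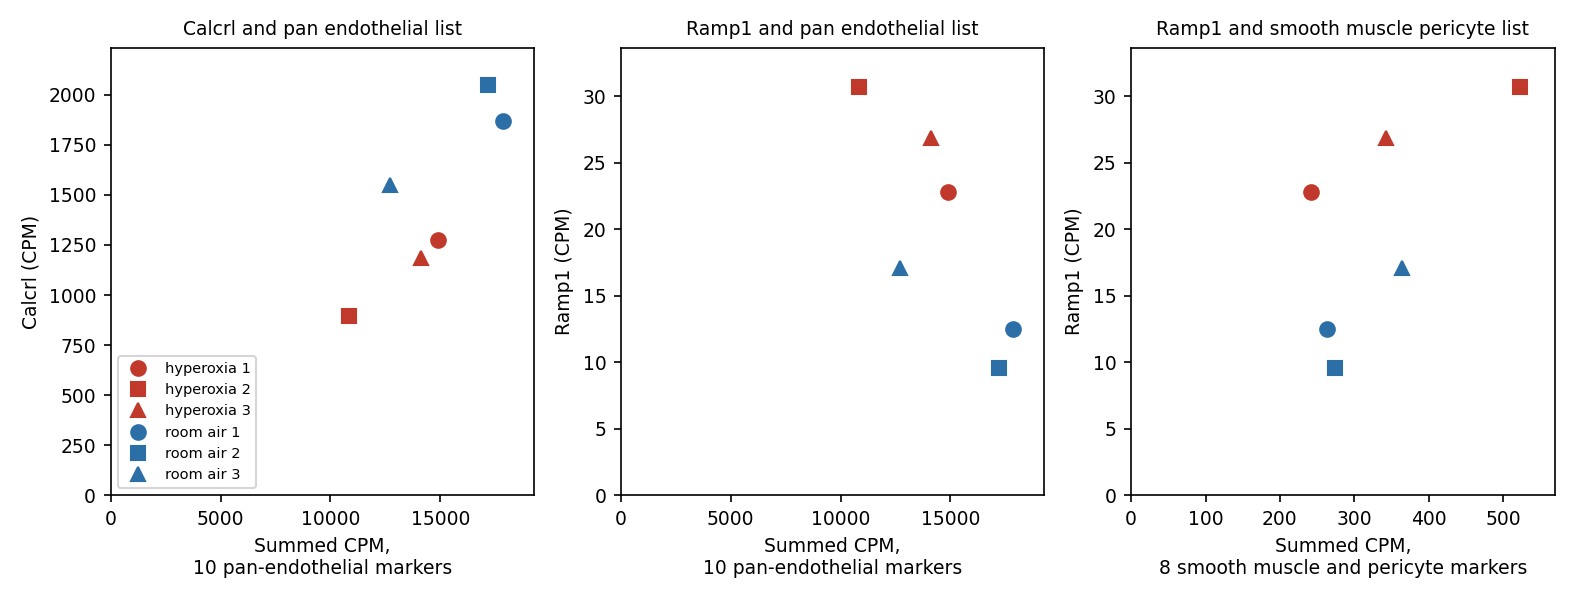
Each point is a library, red for hyperoxia and blue for room air, with the replicate as symbol; the vertical axes are Calcrl or Ramp1 in CPM and the horizontal axes the summed CPM of 10 pan-endothelial markers or 8 smooth muscle and pericyte markers. The library with the lowest pan-endothelial sum of each group also has its lowest Calcrl, while Ramp1 is highest in hyperoxia 2, which has the lowest pan-endothelial and the highest smooth muscle sum.

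Ramp1 (ENSMUSG00000034353) encodes the partner that turns the receptor into a CGRP receptor, and it was the one of the 9 genes called higher. Its level was 22.8, 30.7 and 26.8 CPM in hyperoxia 1, 2 and 3, against 12.5, 9.59 and 17.1 CPM in room air 1, 2 and 3. Every hyperoxia library lay above every room air library. The mean was 26.8 ± 3.94 CPM in hyperoxia and 13.1 ± 3.79 CPM in room air (log2 fold change 1.03, SE 0.21, 95% limits 0.58 to 1.49, edgeR adjusted p = 0.00967). It was called under all 18 alternatives that gave a p-value, with log2 fold changes of 0.85 to 1.27 and adjusted p of 3.94e-08 to 0.0428.

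Within each group Ramp1 was highest in the library with the lowest pan-endothelial sum. Smooth muscle and pericyte markers, of which 0 of 8 were called and none was at 0, summed to 241.8, 523.2 and 342.5 CPM in hyperoxia, against 262.7, 273.9 and 364.4 CPM in room air. Tagln added little to these sums, with 7, 31 and 19 reads in hyperoxia and 7, 16 and 16 in room air. In the annotation 67.9% of its exonic bases lie opposite Pcsk7 and Gm48529 on the other strand, so its count is uncertain. The 8 fibroblast markers, of which 0 were called, summed to 696.9, 1041 and 639.8 CPM in hyperoxia, against 696.4, 576.2 and 827.3 CPM in room air. In both lists the groups overlapped. All 8 alveolar type 1 markers rose, their sum being 5746, 7598 and 5904 CPM in hyperoxia, against 2327, 2662 and 3295 CPM in room air. There hyperoxia 2 and room air 3 were the highest of their groups, as for Ramp1. The same 2 libraries were also highest for the alveolar type 2, fibroblast, smooth muscle, macrophage and airway sums, so this order is not particular to type 1 genes. The part of any of these cells in the Ramp1 difference was not tested.

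Ramp2 (ENSMUSG00000001240), the partner that makes the main adrenomedullin receptor of endothelium, was the dominant RAMP. Its level was 743, 498 and 553 CPM in hyperoxia, against 866, 777 and 616 CPM in room air, and hyperoxia 1 exceeded room air 3. With a log2 fold change of -0.33 (SE 0.18, 95% limits -0.73 to 0.06), it was not called by edgeR (adjusted p = 0.286). Without hyperoxia 1 it was -0.52 (adjusted p = 0.126) and without hyperoxia 2 it was -0.21 (0.574). In the annotation 33.4% of its exonic bases are shared with Vps25 on the same strand, and how reads in shared bases were counted is not given in the sources used here, so its level per length is uncertain.

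Ramp3 (ENSMUSG00000041046), the second adrenomedullin-type partner, was at 17.1, 11.5 and 13.8 CPM in hyperoxia, against 18.3, 22.4 and 16.1 CPM in room air. The groups overlapped at hyperoxia 1. The log2 fold change was -0.42 (SE 0.19, 95% limits -0.83 to -0.01), not called by edgeR (adjusted p = 0.188).

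The RAMP make-up was compared within each library, which needs no scaling between libraries. Per length, Ramp2 made up 91.9, 89.1 and 89.9% of the 3 RAMP transcripts in hyperoxia, against 93.8, 92.4 and 91.5% in room air. Ramp1 made up 3.08, 6 and 4.76% in hyperoxia, against 1.48, 1.25 and 2.78% in room air, and its groups did not overlap. Ramp3 made up 5.05, 4.93 and 5.38% in hyperoxia, against 4.74, 6.38 and 5.71% in room air, with overlap. Ramp1 thus exceeded Ramp3 in hyperoxia 2 but in no other library.

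Of 3 ratios compared, that of Ramp1 to Ramp2 was 0.0335, 0.0674 and 0.053 in hyperoxia, against 0.0158, 0.0135 and 0.0304 in room air. This is a 2.64-fold higher ratio in hyperoxia (log2 difference 1.40; exact two-sided permutation p = 0.1, the smallest possible, 0.15 adjusted over the 3 ratios). The ratio of Ramp3 to Ramp2 was 0.055, 0.0554 and 0.0599 in hyperoxia, against 0.0506, 0.0691 and 0.0624 in room air (log2 difference -0.09, exact permutation p = 0.6, adjusted p = 0.6), and the groups overlapped. The ratio of Calcrl to Ramp2, added after the values were seen, was 1.16, 1.22 and 1.45 in hyperoxia, against 1.46, 1.79 and 1.7 in room air. There hyperoxia 3 and room air 1 nearly met (log2 difference -0.37, exact permutation p = 0.1).

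**Figure D3:**
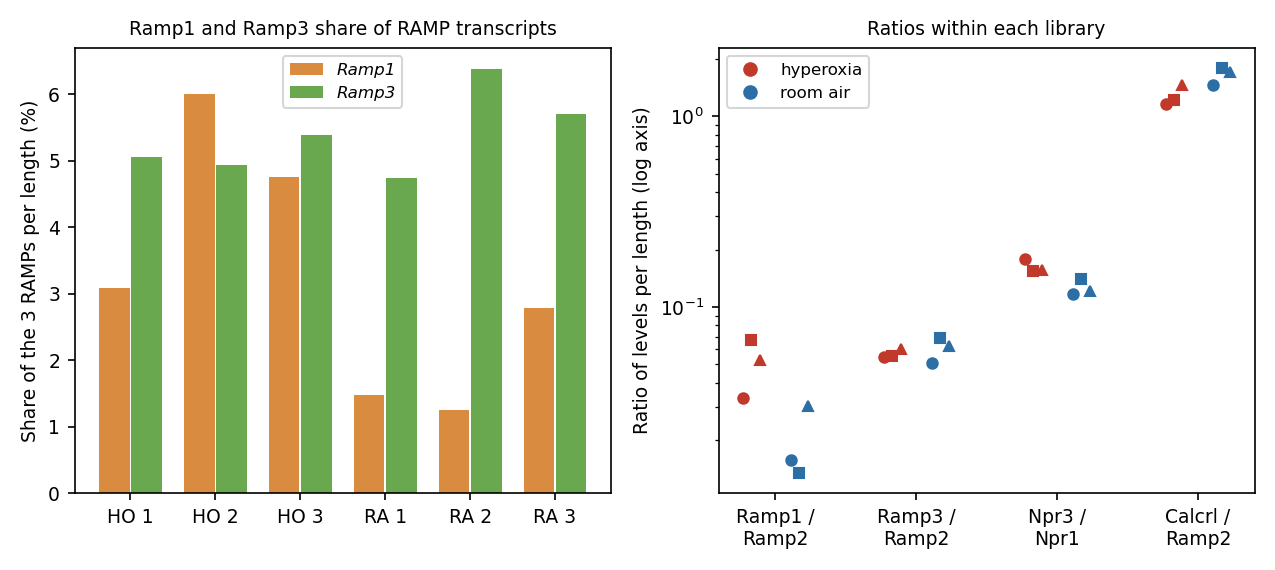
Left, the percentage of the 3 RAMP transcripts per length that was Ramp1 (orange) or Ramp3 (green) in each hyperoxia (HO) and room air (RA) library, Ramp2 making up the rest; right, ratios of levels per length within each library on a log axis, red for hyperoxia and blue for room air, with the replicate as symbol. The Ramp1 share is 3.08 to 6% in hyperoxia and 1.25 to 2.78% in room air.

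Npr1 (ENSMUSG00000027931), the guanylyl cyclase receptor for atrial and B-type natriuretic peptides, was the most abundant of the 3 natriuretic receptors. Its level was 373, 258 and 369 CPM in hyperoxia, against 443, 480 and 319 CPM in room air. The room air 3 value lay between those of the hyperoxia libraries, so the groups overlapped. The log2 fold change was -0.31 (SE 0.18, 95% limits -0.72 to 0.09, edgeR adjusted p = 0.329). It was -0.16 (adjusted p = 0.67) without hyperoxia 2 and -0.20 (0.664) without room air 2, and -0.68 (0.0688) with a term for Y-linked reads. In the annotation 11.7% of its exonic bases lie opposite Gm16048 on the other strand, and whether reads were counted by strand is not given in the sources used here.

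Npr2 (ENSMUSG00000028469), the receptor for C-type natriuretic peptide, was at 39.5, 45 and 40.1 CPM in hyperoxia, against 24.3, 31.5 and 36.9 CPM in room air. The groups did not overlap, although hyperoxia 1 and room air 3 were close. With a log2 fold change of 0.43 (SE 0.15, 95% limits 0.09 to 0.76), it was not called by edgeR (adjusted p = 0.102). Without room air 3 it was 0.57 and was called (adjusted p = 0.0346).

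Npr3 (ENSMUSG00000022206), the clearance receptor, was at 131, 78.3 and 113 CPM in hyperoxia, against 102, 133 and 76.6 CPM in room air. The libraries of both groups were interleaved, with the lowest values in hyperoxia 2 and room air 3. Its log2 fold change was 0.05 (SE 0.21, 95% limits -0.42 to 0.53, edgeR adjusted p = 0.908), and its sign turned when hyperoxia 1 (-0.11) or room air 3 (-0.125) was left out.

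Clearance receptor was then set against cyclase receptor within each library. The ratio of Npr3 to Npr1 per length was 0.179, 0.155 and 0.157 in hyperoxia, against 0.117, 0.141 and 0.122 in room air. All 3 hyperoxia libraries lay above all room air libraries, although neither gene passed the test alone. The ratio was 1.29-fold higher in hyperoxia (log2 difference 0.37, exact two-sided permutation p = 0.1, the smallest possible, 0.15 adjusted over the 3 ratios).

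Vipr1 (ENSMUSG00000032528) was the least abundant of the 9, with 108, 110 and 68 reads in hyperoxia, against 80, 65 and 172 reads in room air. Its level was 2.62, 2.72 and 1.73 CPM in hyperoxia, against 1.94, 1.66 and 4.15 CPM in room air. The high room air value was that of room air 3 alone, whose unscaled CPM of 4.31 (95% Wilson interval 3.71 to 5) exceeded the 1.65 (1.3 to 2.1) of room air 2 by more than counting error, the only error such intervals cover. The log2 fold change was -0.13 (SE 0.40, 95% limits -1.02 to 0.75, edgeR adjusted p = 0.876), and without room air 3 it was 0.39 (adjusted p = 0.636).

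**Figure D4:**
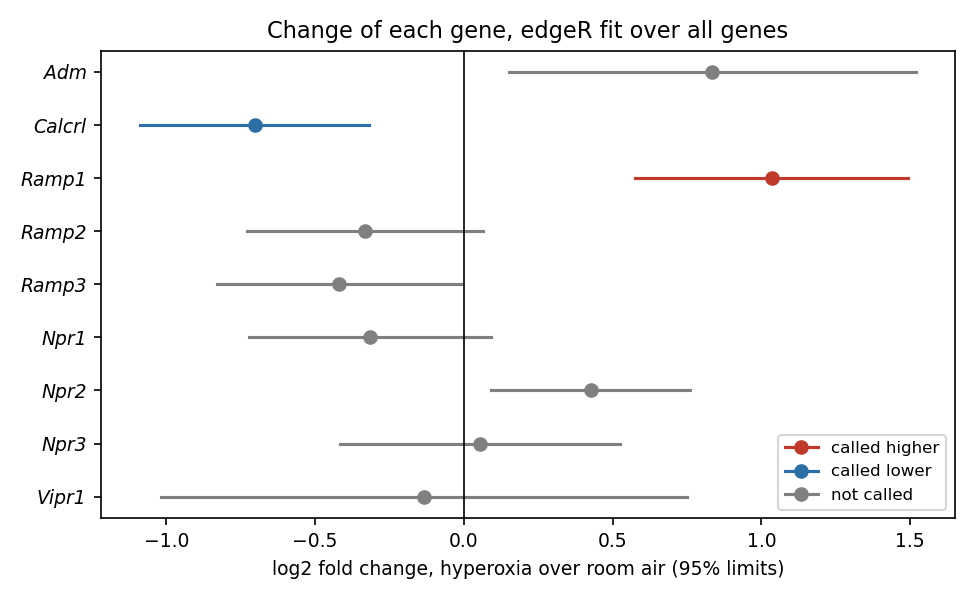
Log2 fold change of each gene, hyperoxia over room air, with approximate 95% limits from the edgeR fit over 17072 genes; red is called higher, blue called lower and grey not called. Ramp1 (1.03) and Calcrl (-0.70) are called, and the limits of Ramp2, Npr1, Npr3 and Vipr1 include 0.

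Dividing every gene by the same pan-endothelial sum raised all log2 differences, that of Calcrl included, by the same amount. The size of this shift therefore says nothing about single genes. Relative to that sum, Ramp2 was at -0.08, Ramp3 at -0.17 and Npr1 at -0.06 on the log2 scale. In plain CPM they were at -0.34, -0.426 and -0.313, and on the relative scale their groups overlapped. On the same scale Adm was at 1.15 and Ramp1 at 1.32, with groups that did not overlap, and Npr2 (0.70), Npr3 (0.31) and Vipr1 (0.22) overlapped. For Calcrl, Adm and Ramp1 the exact permutation p was 0.1, the smallest possible.

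Genes that make, sense or remove adrenomedullin and CGRP were next examined. Of 9 described here, 5 passed the filter, and edgeR called 0 of them higher and 0 lower (median log2 fold change 0.19, against -0.00927 over all genes). At an unadjusted p below 0.05 stood 2 of the 5, Adm2 and Ackr3, while DESeq2 called 1 and limma-voom 0. Pam, the enzyme that amidates the active peptide, had a log2 fold change of 0.19 (SE 0.13) and was not called, with adjusted p between 0.291 and 0.848 over the alternatives. Ackr3, a scavenging receptor for adrenomedullin, was at 388, 305 and 396 CPM in hyperoxia, against 294, 298 and 236 CPM in room air. The groups did not overlap, and the log2 fold change of 0.40 (SE 0.14) was not called, with adjusted p between 0.0314 and 0.644 over the alternatives.

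In the natriuretic list, 11 of 15 genes passed the filter, with 0 higher, 1 lower and 10 not called (median 0.09). The phosphodiesterase gene Pde2a did not pass, with 2, 0 and 0 reads in hyperoxia and 0, 2 and 2 in room air. In the annotation 64.3% of its exonic bases are shared with Gm45837 on the same strand, so its low count is uncertain. Pde5a, the phosphodiesterase that breaks down cyclic GMP, fell to 39, 42.3 and 40.2 CPM in hyperoxia, against 52, 55.5 and 62.4 CPM in room air. The groups did not overlap, and the hyperoxia libraries were within a few CPM of each other (log2 fold change -0.48, SE 0.11, edgeR adjusted p = 0.0183). The call was lost without hyperoxia 1 (adjusted p = 0.0715), hyperoxia 3 (0.0671) or room air 3 (0.0521). The abundant genes not called were Furin, a protease that cleaves natriuretic peptide precursors (log2 fold change 0.23, SE 0.14, and 0.09 without room air 3), and Pde3a, a phosphodiesterase of cyclic AMP that cyclic GMP inhibits (log2 fold change -0.29, SE 0.16, and -0.15 without hyperoxia 2).

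Of 4 further genes of VIP and the related peptide PACAP, 1 passed the filter. This was Vipr2, which encodes VPAC2, the second VIP receptor, at 2.28, 6.2 and 2.21 CPM in hyperoxia, against 0.823, 1.05 and 1.74 CPM in room air. Hyperoxia 2 was far above the rest, but hyperoxia 1 and 3 also exceeded every room air library. At a log2 fold change of 1.56 (SE 0.48) it was not called by edgeR (adjusted p = 0.0616, and 0.00164 to 0.222 over the alternatives). Without hyperoxia 2 it was 0.90 (adjusted p = 0.222), and over the alternatives it ran from 0.90 to 2.36.

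Cyclic AMP effectors lie downstream of Calcrl and Vipr1. All 20 listed passed the filter, with 1 higher, 2 lower and 17 not called (median log2 fold change -0.12). Pde4b, a phosphodiesterase that breaks down cyclic AMP, was at 118, 145 and 145 CPM in hyperoxia, against 327, 477 and 353 CPM in room air. It was 2.83-fold lower (log2 fold change -1.50, SE 0.16, edgeR adjusted p = 0.000402), and even the lowest room air library had far more than any hyperoxia library. Rapgef3, which encodes the cyclic AMP sensor EPAC1, an activator of Rap1, fell to 90, 72.2 and 81.8 CPM in hyperoxia, against 120, 136 and 108 CPM in room air. It was 1.49-fold lower (log2 fold change -0.58, SE 0.12, adjusted p = 0.0134), and did not pass once hyperoxia 3 (adjusted p = 0.0512) or room air 2 (0.0571) was left out. Prkar2a, a regulatory subunit of protein kinase A, rose by 0.45 on the log2 scale (SE 0.11, adjusted p = 0.0229), but was not called without hyperoxia 1 (0.0642), hyperoxia 3 (0.119), room air 2 (0.0861) or room air 3 (0.0549). Gnas, the stimulatory G protein subunit (log2 fold change 0.01, SE 0.15), and Prkar1a, another regulatory subunit (log2 fold change -0.09, SE 0.12), were the abundant genes not called; the sign of Gnas turned in 10 of 18 alternatives.

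Kinases and arrestins that desensitise such receptors moved both ways. Of 6 tested, 1 was higher, 1 lower and 4 not called (median -0.18). Grk5, a receptor kinase, was at 93.1, 88 and 96.2 CPM in hyperoxia, against 60, 57.6 and 51.8 CPM in room air (log2 fold change 0.71, SE 0.10, edgeR adjusted p = 0.00195). Arrb2, encoding beta-arrestin 2, was at 34.3, 31.2 and 32.5 CPM in hyperoxia, against 52.7, 52 and 54.1 CPM in room air (log2 fold change -0.70, SE 0.10, adjusted p = 0.00212). Both had groups set apart by far more than their spread, and both kept their calls under all 18 alternatives. Arrb1, encoding beta-arrestin 1 (log2 fold change -0.17, SE 0.17, and -0.04 without hyperoxia 2), and the kinase gene Grk2 (log2 fold change -0.31, SE 0.10) were the abundant genes not called, Grk2 with adjusted p between 0.0136 and 0.232 over the alternatives.

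Other receptors of class B, the family of Calcrl and Vipr1, were mostly at low counts. Of 13 listed, 9 did not pass the filter, with at most 22 reads in any library, and of the 4 tested 0 were higher and 1 was lower. That was Glp1r, the receptor for glucagon-like peptide 1 and also a general capillary marker, at 207, 122 and 204 CPM in hyperoxia, against 553, 614 and 410 CPM in room air. It was 2.96-fold lower (log2 fold change -1.56, SE 0.21, edgeR adjusted p = 0.00147), and as for Calcrl its lowest libraries were hyperoxia 2 and room air 3. Pth1r, the parathyroid hormone receptor, had a log2 fold change of 0.70 (SE 0.39, and 0.42 without hyperoxia 2) and was not called.

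Adm is a textbook target of hypoxia-inducible factors, so 12 further hypoxia response genes were listed. Of these 1 was higher, 0 were lower and 11 were not called (median log2 fold change 0.22). Slc2a1, the glucose transporter gene, rose to 34.6, 38.4 and 35.8 CPM in hyperoxia, against 26.9, 21.8 and 23.3 CPM in room air (log2 fold change 0.59, SE 0.12, edgeR adjusted p = 0.0115). It did not pass once room air 2 was left out (adjusted p = 0.0544). Vegfa, the endothelial growth factor gene, was at 426, 657 and 469 CPM in hyperoxia, against 253, 544 and 429 CPM in room air (log2 fold change 0.34, SE 0.25, not called; 0.13 without hyperoxia 2 and 0.08 without room air 1). As for Adm, its lowest library was room air 1. Ldha, a lactate dehydrogenase gene, had a log2 fold change of -0.16 (SE 0.12).

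**Figure D5:**
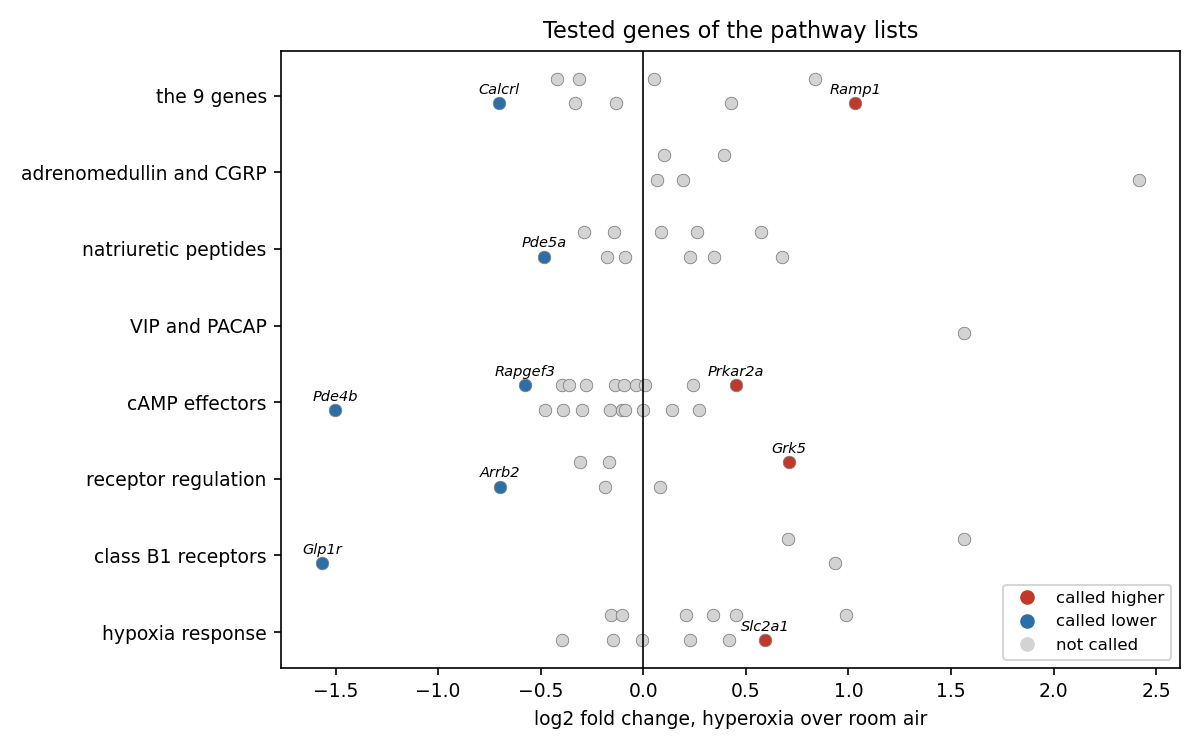
Log2 fold change, hyperoxia over room air, of every tested gene of the 9 and of 7 related lists, 1 row per list, with points offset vertically for legibility; red is called higher, blue called lower and grey not called, and called genes are named. The called genes lie on both sides of 0, from Glp1r (-1.56) to Ramp1 (1.03).

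For the called genes, the genes with the most similar profile over the 6 libraries were sought among 10838 genes, by the root mean square difference of log2 CPM centred on each gene's mean. Nearest to Calcrl were Arap3 (0.0236), a GTPase-activating protein gene, Kank3 (0.0428) and Ccnjl (0.0439). Arap3 was at 421, 309 and 400.4 CPM in hyperoxia, against 620.4, 704 and 529 CPM in room air, with the same order of libraries as Calcrl. Nearest to Ramp1 were Ociad2 (0.0292), Cblc (0.0701), a ubiquitin ligase of the Cbl family, and Fuca2 (0.0956), a fucosidase gene. Ociad2 was at 16.9, 23.5 and 20 CPM in hyperoxia, against 8.88, 7.17 and 12.8 CPM in room air, again in the same order as Ramp1. Since likeness chose these genes, their fold changes follow from the choice and carry no further information.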

How the data were processed

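RNA from CD31-positive lung cells was sequenced in 3 hyperoxia and 3 room air libraries, grouped by their titles. The deposited values are raw counts per Ensembl gene. Alignment and counting tools named in the submitters' processing notes are HISAT2 2.2.1, Subread 2.0.6 with featureCounts, and DESeq2, on GRCm39. Which annotation and strand setting were used, and what was done with shared reads, is not given in the sources used here. The 9 genes, the related gene lists and the marker lists were chosen with earlier results of these data known; 1 listed gene is not reported here and was left out of its list's counts. Symbols were matched by ID for 51948 of 56941 genes. Exon lengths and overlaps came from GENCODE M21 (GRCm38).

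Computation used R 4.3.3. Genes were filtered by filterByExpr (minimum count 10, minimum total 15), scaled by TMM and compared by edgeR 4.0.16's robust quasi-likelihood test without covariates. Benjamini-Hochberg adjustment ran over all 17072 genes tested, and an adjusted p below 0.05 was a call. The common biological coefficient of variation was 0.229. Standard errors, from each fold change and its F statistic, and 95% limits are approximate. Ratios used a pseudocount of 0.5 on counts. The test was also run on simulated counts. Named were the 9 genes; of each related list every called gene and the 2 most abundant not called; and for each called one of the 9, the 3 genes of most similar profile with a mean of at least 5 CPM. Ligand genes were described by role, outside this rule. Alternatives were other scalings and filters, DESeq2 1.42.0, limma-voom (limma 3.58.1), replicate number as a block, a term for Y-linked reads, other thresholds and leaving out libraries. No library duplicated another of its group: the chi-square over genes, divided by its degrees of freedom, was 14.1 to 108.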

Additional observations from a re-analysis of the deposited data

How the results depend on the processing

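Ramp1 stayed called in every alternative that gave a p-value, and so did Pde4b, Grk5, Arrb2 and Glp1r. Calcrl kept its direction throughout, with log2 fold changes from -0.81 to -0.56 when 1 library was left out; it was not called at a threshold of 0.01 (-0.70) or with the replicate block (-0.71, adjusted p = 0.0691), so the lower calls among the 9 genes numbered 0 in these fits and 0 to 1 with 1 library left out. The higher calls numbered 3 with no filter on low counts, where Adm (0.84) and Npr2 (0.43, adjusted p = 0.0276) joined Ramp1, and 1 to 2 with 1 library left out; Npr2 then ran from 0.27 to 0.57. Npr3 turned to -0.41 with a term for Y-linked reads, which compares hyperoxia 2 with room air, and to -0.11 without hyperoxia 1 and -0.125 without room air 3. Vipr1 turned to 0.0736 with the Y-linked term and, within a range of -0.371 to 0.387 with 1 library left out, to 0.03 without hyperoxia 3 and 0.39 without room air 3; it was 0.26 with hyperoxia 2 and room air 3 both omitted and 0.22 relative to the pan-endothelial list. The log2 ratio of Ramp3 to Ramp2 turned to 0.0137 without room air 2, the range with 1 library left out being -0.212 to 0.0137. Gnas turned to -0.00399 with DESeq2's size factors or test, -0.0177 by upper quartile, -0.00976 by library size, -0.108 with the Y-linked term, -0.0117 without hyperoxia 2 and room air 3, and to -0.0553, -0.0457, -0.0391 and -0.00907 with 1 library left out, where it ran up to 0.111. The causes were not tested.

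Over all genes, the higher calls numbered 556 at 0.01 and 681 to 1095 with 1 library left out; the lower calls numbered 1243 with no filter, 1223 with the Y-linked term, 1242 by DESeq2, 233 at 0.01, 1235 at 0.1 and 376 to 749 with 1 library left out. Correlations of the deviations from the group mean between libraries of the same replicate number were 0.183, -0.0929 and -0.17 for numbers 1, 2 and 3. With 3 libraries per group, these values cannot exclude that replicate numbers pair the samples. With the replicate block Prkar2a was also lost (adjusted p = 0.0564); with the Y-linked term Pde5a (0.102) and Prkar2a (0.115) were lost, and without hyperoxia 2 and room air 3 Slc2a1 (0.0588). At Vipr1, Adm2 and the untested ligands, read numbers limit the precision.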
